A study of Mus musculus with 17 samples.

Results

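The 10 genes described here are Bcl2, Bcl2l1, Bcl2l11, Mcl1, Bax, Bak1, Bid, Xiap, Birc2 and Birc3, which encode members of the Bcl2 family and inhibitors of apoptosis. They are a set of named genes from a table of 55450, and all 10 were among the 15348 genes with 1 TPM or more in 2 or more bulk libraries. TPM is a transcript's abundance scaled by its length and by library size, so levels of different genes can be set side by side on it. The study made cell lines from tumor-bearing organs of 10 female MMTV-PyMT mice of the FVB/NJ strain, aged 10 to 12 weeks. It asked how the transcriptomes of these lines differ by organ and by surface CD44. The bulk data hold 14 libraries in 7 groups of 2, and 3 further libraries hold single cells.

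Bcl2-family proteins set whether the outer membrane of the mitochondrion stays intact. Survival proteins (Bcl2, Bcl2l1 and Mcl1) hold the pore-forming effectors Bax and Bak1 in check, and BH3-only proteins such as Bcl2l11 (Bim) and Bid relieve that check when a cell is stressed or a death receptor fires. Downstream, the inhibitor of apoptosis proteins (IAPs) act on caspases: Xiap binds and blocks them, while Birc2 and Birc3 (cIAP1 and cIAP2) are ubiquitin ligases of the TNF receptor complex. In breast cancer this balance is known for bearing on whether cells survive detachment and growth in a foreign organ.

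Every mouse carried the polyoma middle T antigen under the mouse mammary tumor virus promoter, which is active mainly in mammary epithelium, so all 7 groups share this transgene and no group is free of it. One group came from the primary tumor of the mammary fat pad (MFP), and the labels give it no CD44 class. The other 6 came from lungs, lymph nodes (LN) and bone marrow (BM), each as CD44low/EpCAMhigh and CD44high/EpCAMhigh cells. Cells of all 7 groups, MFP included, were grown in culture for about a month before sorting. The 2 replicates of a group were distinct clonal isolates from different mice, so each library is 1 isolate and the p-values below measure the spread between isolates. Which mouse gave which library is not stated, so libraries of different groups could share a mouse. The cells were not treated with any agent before RNA was taken, as far as the labels say.

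The lung lines did not carry the RNA of their sort marker. Epcam lay between 315 and 941 TPM in the 10 other libraries but at 0, 0, 0.23 and 0.86 TPM in the 4 lung libraries, and Cdh1 was at most 0.03 TPM there. The summed level of the 6 fibroblast markers (Col1a1, Col1a2, Col3a1, Dcn, Lum, Pdgfra) was 4632 to 4969 TPM in Lung CD44low with all 6 at 1 TPM or more, 83.7 to 189 TPM in Lung CD44high, where 2 to 3 of 6 reached 1 TPM, and at most 11.5 TPM elsewhere. The epithelial list summed to 1.64 to 87.5 TPM in lung and to 1389 to 6131 TPM elsewhere, and the basal list to 1.65 to 4.61 TPM in lung, 12.7 to 62.7 TPM in LN and BM and 594 to 655 TPM in MFP. The 5 macrophage markers summed to 39.1 to 39.2 TPM in Lung CD44low, of which Lyz2 gave 35.2 and 34.8 TPM, and to 2.28 to 23.4 TPM elsewhere. The macrophage marker Ptprc was at most 0.20 TPM and Adgre1 was listed at 0 in all 14 libraries, and the 4 endothelial markers summed to at most 0.21 TPM. Summed cycling markers were 3.71 to 55.2 TPM in the lung libraries against 474 to 4924 TPM in LN and BM. Cd44 RNA did not follow the sort either: LN CD44low isolates had 147 and 82.7 TPM against 49.0 and 52.3 TPM in LN CD44high, and lung isolates had 12.2 and 21.6 against 21.95 and 12.1 TPM. The part of these differences in the results on the lung lines was not tested. In the BM CD44low group, replicate 2 stood apart from replicate 1: 25.1% of all genes tested and 4 of the 10 members differed by more than 1 on the log2(TPM + 1) scale between them. The LN CD44low isolates were also apart, with 19.0% of all genes and 1 member (Bak1) past that gap and cycling sums of 3343 and 474 TPM. In the other 5 groups the share of genes was 3.44 to 9.46%.

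A moderated F test (limma on log2(TPM + 1), adjusted over all 15348 genes) found different levels among the 7 groups for 6 of the 10 members, namely Bcl2l1, Bax, Bid, Xiap, Birc2 and Birc3. The same test called 65.2% of all genes, so the share among the members was close to the background. Bcl2, Mcl1, Bak1 and Bcl2l11 did not pass it. With the 4 lung libraries left out, the F test over the 5 remaining groups called 0 of the 10 members (2 had an unadjusted p under 0.05) while it called 14.8% of all genes, and the lowest adjusted p was that of Bid at 0.074. The members are given first by role and then by comparison.

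**Figure D1:**
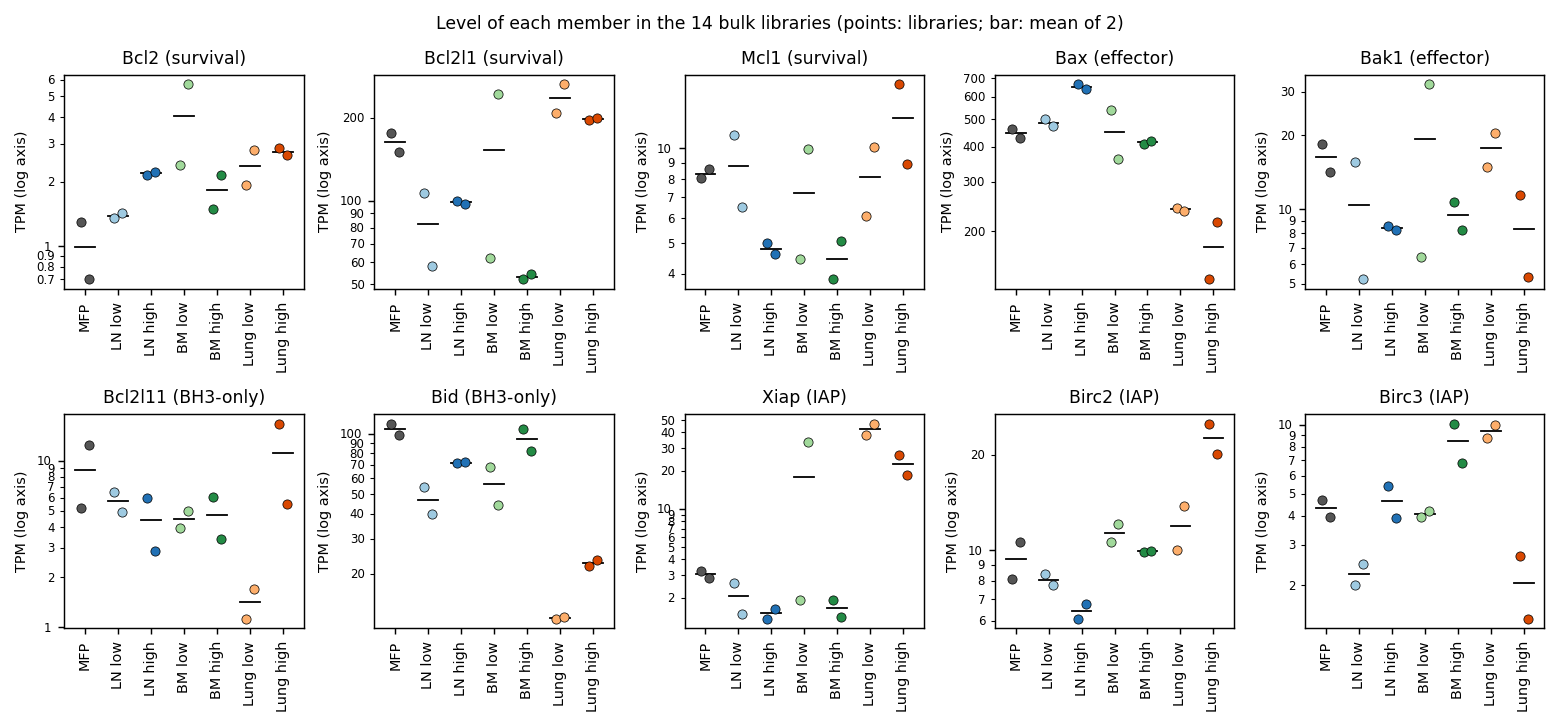
Level of each of the 10 genes in TPM (log axis, a separate scale per gene) in the 14 bulk libraries, with 1 point per library and a bar at the mean of the 2 isolates. Bid and Bax were lower in all 4 lung libraries than in the other 10, and the upper BM CD44low point of Xiap, Bcl2l1 and Bak1 is replicate 2.

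Within the set, levels spanned a wide range. Bax had a median of 424 TPM over the 14 libraries, followed by Bcl2l1 at 129 TPM and Bid at 61.1 TPM. The other 7 had medians from 2.145 TPM (Bcl2) to 11.1 TPM (Bak1). Bax was thus the most abundant member by median, and Bcl2l1, which encodes Bcl-xL, the most abundant survival gene. Xiap varied most, with a 34.3-fold range between its lowest and highest library, and Birc2 least, with a 4.13-fold range.

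Among the survival genes, Bcl2l1 separated the lung lines from most of the others. Bcl2l1 (mm10 chr2:152780668-152831728, minus strand) was at 208 and 264 TPM in Lung CD44low and at 196 and 199.5 TPM in Lung CD44high. The MFP isolates held 177 and 150.2 TPM. Lower levels were found in LN CD44low (107 and 58.1 TPM), LN CD44high (99.9 and 97.7 TPM) and BM CD44high (52.1 and 54.2 TPM). BM CD44low was split, with 62.2 TPM in replicate 1 and 243 TPM in replicate 2, and the latter was the only LN or BM library within the lung range. The mean log2 level of the lung lines was 1.34 ± 0.31 (SE) above that of the LN and BM lines (limma, adjusted p = 0.0043), and 1.58 above it without BM CD44low replicate 2. Bcl2l1 in BM CD44high fell by 1.60 ± 0.51 against MFP (adjusted p = 0.043), a call kept in 4 of 14 fits made with 1 library dropped in turn, those without an LN CD44low or a BM CD44low isolate (log2 fold change -1.71 to -1.48 over the 14). It was also lost with no filter on low TPM (adjusted p = 0.092), median-ratio scaling (0.11) and a replicate block (0.057).

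Bcl2 and Mcl1 were far less abundant than Bcl2l1 and passed few tests. Bcl2 (chr1:106538178-106714274, minus strand), the founding member of the family, ranged from 0.70 TPM in MFP replicate 2 to 5.70 TPM in BM CD44low replicate 2. It was higher in BM CD44low than in MFP by 1.27 ± 0.33 on the log2 scale (limma, adjusted p = 0.022). That call was lost without BM CD44low replicate 2 (0.79), without MFP replicate 2 (1.06) and in the fit of the 2 compared groups alone (adjusted p = 0.20). Mcl1 (chr3:95658788-95663176, plus strand), a short-lived survival protein, ranged from 3.85 TPM in BM CD44high replicate 1 to 16.0 TPM in Lung CD44high replicate 1, and passed none of the 12 comparisons. Its difference between the lung lines and the LN and BM lines was 0.63 ± 0.26 (95% interval 0.054 to 1.20, adjusted p = 0.057). In a comparison added after the values were seen, Lung CD44high alone exceeded the LN and BM lines by 0.90 ± 0.33 (limma, adjusted p = 0.048).

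The 2 effectors parted. Bax (chr7:45461697-45466898, minus strand), which perforates the mitochondrial outer membrane once activated, was at 243 and 236 TPM in Lung CD44low and 135 and 217 TPM in Lung CD44high. In LN it reached 501 and 472 TPM (CD44low) and 665 and 639 TPM (CD44high). BM CD44low held 538 and 361 TPM, BM CD44high 409.7 and 420.2 TPM, and MFP 462 and 429 TPM. No lung library reached the lowest library of any other group. Against the LN and BM lines the lung lines fell by 1.27 ± 0.15 on the log2 scale (limma, adjusted p = 5.88e-05), and the call was kept in all 14 fits made with 1 library dropped. Against MFP, Bax fell by 1.37 ± 0.25 in Lung CD44high (adjusted p = 0.0018) and by 0.89 ± 0.25 in Lung CD44low (adjusted p = 0.014). The latter call was lost without MFP replicate 1 (-0.84), Lung CD44low replicate 1 (-0.91) or Lung CD44low replicate 2 (-0.87), and under median-ratio scaling (adjusted p = 0.085).

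Bak1 (chr17:27019810-27029009, minus strand), the other effector, was called in no comparison. It lay between 5.21 TPM (LN CD44low replicate 2) and 32.2 TPM (BM CD44low replicate 2), and the other isolates of these 2 groups were at 15.6 and 6.42 TPM. Its log2 difference between lung lines and LN and BM lines was 0.19 with a 95% interval of -0.72 to 1.11. Bak1 overlaps Ggnbp1 on the opposite strand and shares 20.4% of its 31-base words with that gene, which was at 12.7 and 14.4 TPM in Lung CD44high and at most 3.44 TPM elsewhere. The bulk library kit does not mark strand, and the part of shared reads in the Bak1 level was not tested.

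The BH3-only gene Bid had the largest falls of the set. Bid (chr6:120891930-120916853, minus strand), which death-receptor caspases cut to activate Bax and Bak1, was at 11.96 and 12.1 TPM in Lung CD44low and 21.8 and 23.4 TPM in Lung CD44high. MFP isolates had 113 and 98.8 TPM and BM CD44high 106 and 82.3 TPM. LN CD44high (71.6 and 72.1 TPM), BM CD44low (68.2 and 44.2 TPM) and LN CD44low (54.1 and 39.9 TPM) lay between. The lung groups overlapped with no other group. Bid fell by 3.03 ± 0.24 on the log2 scale in Lung CD44low against MFP (limma, adjusted p = 5.62e-06), by 2.18 ± 0.24 in Lung CD44high against MFP (adjusted p = 9.67e-05) and by 1.90 ± 0.15 in lung lines against LN and BM lines (adjusted p = 3.44e-06). These 3 calls were kept in all 14 fits that left out 1 library. Bid was also lower than in MFP in LN CD44low (-1.17 ± 0.24, adjusted p = 0.010) and BM CD44low (-0.93 ± 0.24, adjusted p = 0.021). The LN call was lost without MFP replicate 1 (-1.07) or LN CD44low replicate 2 (-0.95), and the BM call without MFP replicate 1 (-0.84), MFP replicate 2 (-1.02) or BM CD44low replicate 2 (-0.62). Both were lost under median-ratio scaling (adjusted p = 0.10 and 0.16) and in the fit of the compared groups alone (0.11 and 0.16). Bid and Bcl2l13 overlap at their ends on opposite strands and share 16.9% of the 31-base words of Bid. Bcl2l13 was at 9.45 to 16.8 TPM in the lung lines and at 9.01 to 25.3 TPM elsewhere.

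Bcl2l11 moved within the lung lines instead. Bcl2l11 (chr2:128126038-128162547, plus strand) encodes Bim, a BH3-only protein that binds every major survival protein. It was at 1.13 and 1.69 TPM in Lung CD44low, below all other libraries, and at 16.7 and 5.53 TPM in Lung CD44high. The other 5 groups lay between 2.88 and 12.4 TPM. Lung CD44high exceeded Lung CD44low by 2.17 ± 0.54 on the log2 scale (limma, adjusted p = 0.013), and Bcl2l11 in Lung CD44low fell by 1.93 ± 0.54 against MFP (adjusted p = 0.015). The first call was lost without Lung CD44low replicate 1 (2.00), Lung CD44low replicate 2 (2.34) or Lung CD44high replicate 1 (1.45), and in the fit of the 2 compared groups alone (adjusted p = 0.091). The second was lost without MFP replicate 2 (-1.38), Lung CD44low replicate 1 (-1.76) or Lung CD44low replicate 2 (-2.10).

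The promoter windows of both BH3-only genes are shown because they carry the largest fall against MFP and the largest rise within lung. Each window runs from 250 bases before to 50 bases after an annotated RefSeq start on GRCm38.p6 (the mm10 assembly), printed 5′ to 3′ on the gene's strand, and capitals mark motif matches. The search, on both strands, covered the NF-kB consensus and the p53 decamer by name, the FOXO motif GTAAACA, the CRE motif TGACGTCA, the CCAAT box, the TATA motif TATAAA and the AP-1 motif TGANTCA. The window of Bcl2l11 (chr2:128125788-128126087, plus strand, 1 of 2 listed for the gene) held GTAAACA at -227, a motif found in 3.65% of all 32817 windows, and CCAAT on the minus strand at -57, found in 37.4%. The window of Bid (chr6:120916775-120917074, minus strand) held none of them. Its GC content was 63.3% with 22 CpG, against medians of 52.7% and 7 over all windows.
Bcl2l11: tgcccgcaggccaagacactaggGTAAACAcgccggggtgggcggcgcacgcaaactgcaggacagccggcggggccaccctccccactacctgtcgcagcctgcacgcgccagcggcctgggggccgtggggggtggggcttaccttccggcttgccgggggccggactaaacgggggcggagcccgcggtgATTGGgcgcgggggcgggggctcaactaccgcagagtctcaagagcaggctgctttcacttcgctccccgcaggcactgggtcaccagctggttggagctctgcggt
Bid: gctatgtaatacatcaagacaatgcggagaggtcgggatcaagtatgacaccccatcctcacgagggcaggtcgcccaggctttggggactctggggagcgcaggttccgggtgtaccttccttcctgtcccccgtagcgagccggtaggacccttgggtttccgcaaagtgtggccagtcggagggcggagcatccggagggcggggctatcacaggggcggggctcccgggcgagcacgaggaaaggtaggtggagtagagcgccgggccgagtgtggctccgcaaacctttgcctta

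Of the IAP genes, Xiap rose most. Xiap (chrX:42059679-42109656, plus strand), the direct caspase inhibitor, was at 37.9 and 47.0 TPM in Lung CD44low and 26.5 and 18.6 TPM in Lung CD44high. MFP, LN and BM CD44high libraries all lay between 1.37 and 3.26 TPM. BM CD44low was at 1.93 TPM in replicate 1 and at 33.6 TPM in replicate 2, which is within the lung range. The lung lines were 3.07 ± 0.52 higher than the LN and BM lines on the log2 scale (limma, adjusted p = 0.00065), and 3.52 higher without BM CD44low replicate 2. Against MFP, Xiap rose by 3.41 ± 0.86 in Lung CD44low (adjusted p = 0.0090), a call lost without Lung CD44low replicate 2 (3.26). In Lung CD44high it rose by 2.51 ± 0.86 (adjusted p = 0.044), which was kept in only 2 of the 14 fits that left out 1 library, those without a BM CD44low isolate (2.27 to 2.76 over the 14), and was lost with no filter on low TPM (adjusted p = 0.092) and a replicate block (0.054). BM CD44high differed from BM CD44low by -1.92 (95% interval -3.84 to -0.012, adjusted p = 0.62).

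Birc2 and Birc3, neighbouring genes 11634 bases apart on chromosome 9, went opposite ways with CD44 in the lung lines. Birc2 (chr9:7818227-7837064, minus strand) was at 25.1 and 20.2 TPM in Lung CD44high and at 10.0 and 13.8 TPM in Lung CD44low, while the other 10 libraries lay between 6.09 and 12.1 TPM. Birc2 was 0.88 ± 0.24 higher in Lung CD44high than in Lung CD44low on the log2 scale (limma, adjusted p = 0.021), lost without Lung CD44low replicate 1 (0.67) or Lung CD44high replicate 1 (0.73) and in the fit of the 2 compared groups alone (adjusted p = 0.087). It was 1.19 ± 0.24 higher in Lung CD44high than in MFP (adjusted p = 0.0038) and 0.83 ± 0.15 higher in the lung lines than in the LN and BM lines (adjusted p = 0.00090), both kept in all 14 fits. Only 2.03% of the 31-base words of Birc2 occur in Birc3.

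Birc3 (chr9:7848699-7873186, minus strand) was at 8.73 and 9.94 TPM in Lung CD44low and at 2.67 and 1.43 TPM in Lung CD44high. Its other high group was BM CD44high, with 10.1 and 6.83 TPM. LN CD44low held 2.01 and 2.48 TPM, and the MFP, LN CD44high and BM CD44low libraries lay between 3.90 and 5.39 TPM. Birc3 fell by 1.79 ± 0.30 on the log2 scale from Lung CD44low to Lung CD44high (limma, adjusted p = 0.0015), and this call was kept in all 14 fits. Its rise in Lung CD44low over MFP (0.96 ± 0.30, adjusted p = 0.026) was lost without either isolate of MFP (1.05 and 0.86) or of Lung CD44low (1.04 and 0.87). Of the 31-base words of Birc3, 11.6% occur in other annotated transcripts, 5.34% in Gm7019.

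The windows of Xiap and Birc3 are shown as those of the IAP genes with the largest rise and the largest fall. The window of Xiap (chrX:42068148-42068447, plus strand, 1 of 3 listed for the gene) held the NF-kB consensus at 23 bases after the start, a match found in 8.46% of windows. The window of Birc3 (chr9:7873121-7873420, minus strand) held none of the motifs searched, with a GC content of 43% and 7 CpG. A match describes letters in a window and is no evidence of binding.
Xiap: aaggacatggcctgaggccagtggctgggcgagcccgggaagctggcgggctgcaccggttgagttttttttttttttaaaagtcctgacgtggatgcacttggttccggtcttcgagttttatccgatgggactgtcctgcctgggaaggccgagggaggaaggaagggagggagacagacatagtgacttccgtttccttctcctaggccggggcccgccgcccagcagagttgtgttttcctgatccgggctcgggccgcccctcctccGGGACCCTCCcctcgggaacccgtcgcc
Birc3: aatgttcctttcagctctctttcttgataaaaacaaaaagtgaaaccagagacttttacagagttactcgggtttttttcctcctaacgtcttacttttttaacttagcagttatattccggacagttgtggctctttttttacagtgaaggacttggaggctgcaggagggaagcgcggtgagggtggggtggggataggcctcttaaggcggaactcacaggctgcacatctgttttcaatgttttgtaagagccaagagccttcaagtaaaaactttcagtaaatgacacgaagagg

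Bcl2l1 and Bax were also set against each other within each library. The ratio of Bcl2l1 to Bax, a measure chosen after the values were seen and given without a test, was 0.86 and 1.12 in Lung CD44low and 1.45 and 0.92 in Lung CD44high. MFP isolates had 0.38 and 0.35. In the LN and BM libraries it lay between 0.12 and 0.21 except in BM CD44low replicate 2, where it was 0.67. Summing Bcl2, Bcl2l1 and Mcl1 over Bax and Bak1 gave nearly the same values, 0.84 to 1.46 in lung, 0.36 to 0.39 in MFP and 0.13 to 0.66 in LN and BM. The summed level of all 10 members was 454 to 618 TPM in the lung libraries, 594 to 871 TPM in LN and BM and 731 to 799.9 TPM in MFP. Levels are relative to each library's total RNA, so fewer transcripts per cell and fewer cells with a transcript cannot be told apart.

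**Figure D2:**
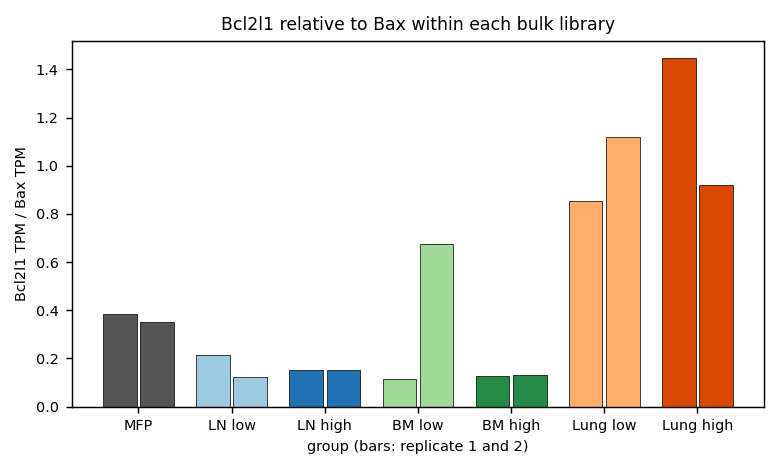
Ratio of Bcl2l1 TPM to Bax TPM in each bulk library (bars, 2 isolates per group). The 4 lung libraries lie between 0.86 and 1.45, the 2 MFP libraries at 0.38 and 0.35, and of the LN and BM libraries only BM CD44low replicate 2 exceeds 0.21.

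In the comparisons with MFP, the members' calls were close to or below the shares found among all genes. The 6 comparisons with the primary tumor share the same 2 MFP libraries. For LN CD44low against MFP, 1 of 10 members (Bid, lower) was called beside 14% of all genes. For LN CD44high against MFP, limma called 0 members beside 23.8% of all genes, with 2 members at an unadjusted p under 0.05. For BM CD44low against MFP, 2 members (Bcl2 higher, Bid lower) were called beside 23.2%, and for BM CD44high 1 member (Bcl2l1, lower) beside 27%. The lung groups had more: 5 members in Lung CD44low (Xiap and Birc3 higher, Bax, Bcl2l11 and Bid lower) beside 45% of all genes, and 4 in Lung CD44high (Xiap and Birc2 higher, Bax and Bid lower) beside 36.1%. The median log2 difference of all genes from MFP was -0.18 to -0.34 in LN CD44low, LN CD44high and BM CD44high, and that of the members was -0.44, -0.61 and -0.40. Scaling each library by its median ratio to the others ended the calls against MFP of Bid in LN CD44low (-0.85) and BM CD44low (-0.64), Bcl2l1 in BM CD44high (-1.03) and Bax in Lung CD44low (-0.76).

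CD44 class within an organ gave member calls in lung but not in the other 2 organs. In LN, limma called 0 of 10 members between CD44high and CD44low (2 at an unadjusted p under 0.05) beside 0.378% of all genes. In BM it called 0 (5 at an unadjusted p under 0.05) beside 0.15%. Without BM CD44low replicate 1 it called 4 in BM, beside 15.7% of all genes in that fit. In lung it called 4, with Bcl2l11, Bid and Birc2 higher and Birc3 lower in CD44high, beside 30.7%. The lung call of Bid (0.85 ± 0.24, adjusted p = 0.024) was lost without any 1 of the 4 lung libraries (0.80 to 0.90). The difference between organs was tested directly for each member. The CD44 difference in lung differed from that in LN for 3 members (Bcl2l11, Birc2 and Birc3) beside 19.5% of all genes, and from that in BM for 1 member (Birc3) beside 15.3%. The calls of Bcl2l11 and Birc2 against LN were lost with a replicate block (adjusted p = 0.058 and 0.057) and in the fit of the compared groups alone (0.065 and 0.060). That of Bcl2l11 was also lost with no filter on low TPM (adjusted p = 0.080), and that of Birc2 under median-ratio scaling (0.061). Both were lost in some of the 14 fits that left out 1 library (9 and 7), whereas the calls of Birc3 were kept in all 14.

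Setting all lung lines against all LN and BM lines called 5 members (Bcl2l1, Xiap and Birc2 higher, Bax and Bid lower) beside 59.9% of all genes. The 5 calls were kept in each of the 14 fits that left out 1 library. Taken alone, Lung CD44low differed from the LN and BM lines for 6 members beside 55.4% of all genes, and Lung CD44high for 7 members beside 47.1%, Mcl1 and Birc2 included. Bcl2l1, Bax, Bid and Xiap had the same direction in both. Birc3 was higher by 0.93 ± 0.24 in Lung CD44low (limma, adjusted p = 0.0080) and lower in Lung CD44high (-0.86 ± 0.24, adjusted p = 0.014), so its mean difference over both was 0.037. These values belong to groups whose fibroblast markers differ, as given above.

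**Figure D3:**
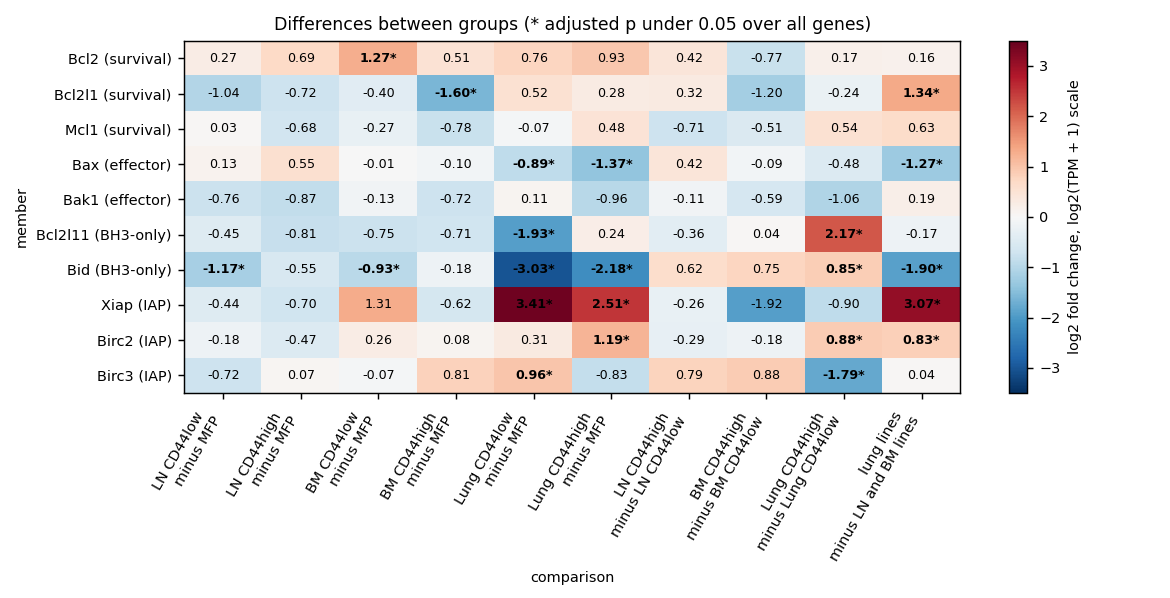
Log2 fold change on the log2(TPM + 1) scale of each of the 10 genes (rows) in 10 comparisons (columns), with colour and number giving the difference of the first group from the second. An asterisk marks an adjusted p under 0.05 over all genes tested, and most asterisks stand in columns with a lung group, led by Xiap at 3.41 and Bid at -3.03.

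The genes whose log2 levels followed each called member most closely over the 14 libraries were found by Pearson's r, as a description. Bcl2l1 was followed by Rest (0.96), Rbm22 (0.95) and Usp6nl (0.95). Bax was followed by Ccnd1 (0.96) and Eif5al3-ps (0.95), and Bid by Slc25a10 (0.97), Aco1 (0.96) and H2-K1 (0.96). Xiap had the closest followers, Pard3b (0.99), Map2 (0.99) and Scaf1 (0.98). For Birc2 they were Abhd14b (0.96), Amigo2 (0.94) and Zmym5 (0.93), and for Birc3 Chil1 (0.91), Casp4 (0.90) and Ccl7 (0.87). The libraries share the split between lung lines and the rest, which enters the values of Bcl2l1, Bax, Bid, Xiap and Birc2. For Birc3 the lung lines differed from the LN and BM lines by only 0.037 on the log2 scale, with the 2 lung groups apart.

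Other genes of the apoptosis pathway were read from 5 lists of 46 genes, of which 37 passed the filter on low values. Between lung lines and LN and BM lines, 8 of the 37 were higher and 12 lower, beside 59.9% of all genes called in either direction. Of the BH3-only and other pro-death genes, 1 of 12 tested was higher and 5 lower. Bok, a Bax-like effector, was at 18.7 to 36.1 TPM in LN and BM, 5.08 and 3.75 TPM in MFP and 0.19 to 2.46 TPM in lung, and it fell by 3.67 ± 0.19 (limma, adjusted p = 1.60e-07). Bik, a BH3-only gene, fell by 1.47 ± 0.18 (adjusted p = 8.76e-05). Bcl2l14 was listed at 0 in all 4 lung libraries and at 0.91 to 8.57 TPM in LN and BM. Bcl2l15 was highest in MFP, at 4.43 and 3.19 TPM, and at most 2.16 TPM elsewhere. The single other survival gene that passed the filter, Bcl2l2 (Bcl-w), was higher in lung by 1.21 ± 0.24 (adjusted p = 0.0016).

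In the list of apoptosome and caspase genes, 3 of 8 tested were lower in the lung lines and none higher. Cytochrome c (Cycs), which leaves the mitochondrion once its outer membrane opens, was at 14.5 to 33.5 TPM in lung against 34.5 to 62.9 TPM in LN and BM, a fall of 1.05 ± 0.16 (limma, adjusted p = 0.00027). Casp8, which cleaves Bid, was highest in MFP at 81.5 and 55.2 TPM, and its lung difference did not pass (-0.29 ± 0.18, adjusted p = 0.20).

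In the death receptor arm 4 of 10 genes were higher and 3 lower. The receptor Fas was at 106 and 116 TPM in Lung CD44low, 325 and 215 TPM in Lung CD44high and 3.74 to 54.9 TPM in LN and BM, a rise of 3.18 ± 0.20 (limma, adjusted p = 6.69e-07). The TNF receptor Tnfrsf1a rose by 1.16 ± 0.16 (adjusted p = 0.00015), whereas its adaptor Tradd fell by 0.54 ± 0.12 (adjusted p = 0.0031). Traf1, a partner of Birc2 and Birc3, was at 0 to 0.08 TPM in lung and 1.02 to 6.34 TPM in LN and BM.

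Of the other IAPs and their antagonists, 2 of 6 tested were higher in lung and 1 lower. Birc5 (survivin), which also acts in cell division, was at 0.45 to 8.88 TPM in lung, 161 and 146 TPM in MFP and 345 to 4172 TPM in LN and BM, and it fell by 9.41 ± 0.57 (limma, adjusted p = 6.11e-07). The other cycling markers moved with it, as given above, and their part in the result was not tested. Naip2 rose by 1.74 ± 0.17 (adjusted p = 1.46e-05). Diablo (Smac), which displaces caspases from Xiap, rose by 0.95 ± 0.11 (adjusted p = 6.08e-05) and held 121 and 130 TPM in Lung CD44high. Xaf1, an antagonist of Xiap, did not differ beyond its error (-0.29 ± 0.43, adjusted p = 0.59).

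**Figure D4:**
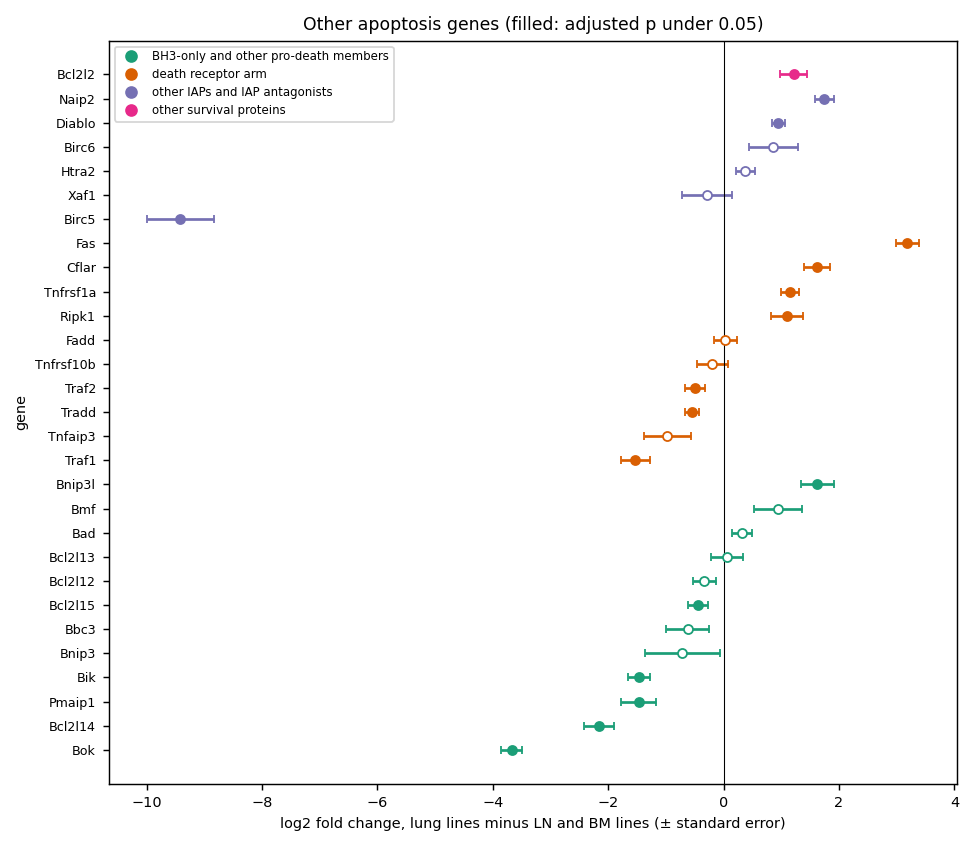
Log2 fold change of the 29 tested genes of 4 pathway lists (all but the apoptosome and caspase list), lung lines minus LN and BM lines, with standard errors as bars, grouped and coloured by list. Filled points have an adjusted p under 0.05: 8 lie right of 0, led by Fas at 3.18, and 9 left of 0, led by Birc5 at -9.41.

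There was 1 single-cell library each of Lung CD44high, Lung CD44low and LN CD44high, and so they allow no test between groups. The study's methods describe replicate isolates from different mice for each single-cell sample, but both lung libraries are labelled replicate 1 and the LN library carries no replicate number. How many isolates each library holds is therefore unclear. Cells with more than 250 genes and under 10% mitochondrial counts numbered 1236 of 3623 barcodes in Lung CD44high, 348 of 2808 in Lung CD44low and 2562 of 3297 in LN CD44high. The study names the same limits, but the cell counts it states per library are lower than these and do not add up to the total it states, so whether the same cells were used is unclear. Median depth differed, with 557, 4011 and 585 counts per cell. Values are summed counts per 10000 with exact Poisson 95% intervals, which cover counting error only. Collagen RNA marked the Lung CD44low cells as in bulk: Col1a2 had 3192 counts there, 0 in Lung CD44high and 2 in LN CD44high, and Col1a1 had 965, 5 and 14. The other fibroblast markers were lower, with Pdgfra at 141, 39 and 30 counts, Col3a1 at 102, 0 and 0, Dcn at 22, 0 and 0 and Lum at 0 in each. Of the epithelial markers, Epcam (936 counts) and Cdh1 (196) were found in the LN cells, against 3 and 0 counts in Lung CD44high and 0 of both in Lung CD44low. The keratins were not so split: Krt18 was at 2.59, 0.52 and 1.17 per 10000 in Lung CD44high, Lung CD44low and LN CD44high, and Krt8 at 1.67, 0.14 and 2.80. The cycling marker Top2a was at 3.17, 1.38 and 1.52 per 10000 in the same order. Relative to LN CD44high, Lung CD44low had 0.91 times the level of Top2a and 0.74 times that of Cdk1. Its ratios were lower for Ccnb1 (0.33), Mki67 (0.31), Aurka (0.27) and Birc5 (0.072). Lung CD44high had ratios of 2.12 for Mki67, 2.09 for Top2a, 2.05 for Cdk1 and 1.66 for Ccnb1. For Aurka and Birc5 its ratios were 0.93 and 0.19. The bulk lung lines were the lowest in cycling markers. Ptprc had 0 counts in each single-cell library.

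Bax, Xiap, Bcl2 and Birc3 had the same order between lung and LN cells as in bulk. Bax was at 0.90 (0.78 to 1.03) per 10000 in Lung CD44high and 0.66 (0.56 to 0.78) in Lung CD44low against 1.86 in LN CD44high, ratios of 0.48 (0.41 to 0.56) and 0.36 (0.30 to 0.42). Bcl2 was at 0.51 and 0.45 per 10000 in the lung cells and at 0.30 in the LN cells. Its bulk means in Lung CD44high and Lung CD44low were only 1.27 and 1.08 times that of LN CD44high. The bulk Lung CD44low isolates (1.92 and 2.82 TPM) overlapped with those of LN CD44high (2.14 and 2.23 TPM). Xiap was 1.47-fold (1.16 to 1.87) and 1.72-fold (1.37 to 2.16) the LN level, where the bulk means gave ratios of 15.0 and 28.2. Birc3 was rare, with 26 counts in Lung CD44low, 2 in Lung CD44high and 24 in LN CD44high, a Lung CD44low to CD44high ratio of 12.9 (3.24 to 113), and 4.42 with cells weighted equally. Bcl2l11 was at 0.52 per 10000 in Lung CD44high, 0.17 in Lung CD44low and 0.076 in LN CD44high. Its Lung CD44low to CD44high ratio of 0.32 (0.21 to 0.47) lay on the same side as the bulk ratio of 0.13, whereas its Lung CD44low to LN ratio of 2.20 (1.37 to 3.53) lay on the other side from the bulk ratio of 0.32, and was 4.10 with cells weighted equally.

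For other members the single cells went another way than the bulk lines. Bcl2l1 was highest in the LN cells at 2.98 per 10000, and the lung cells had 0.59 times (0.52 to 0.66) and 0.55 times (0.49 to 0.62) that level, whereas the bulk means gave 2.00 and 2.39. With cells of over 500 genes the LN level was 1.88 and the ratios were 0.85 and 0.85, and as a mean over cells the LN level was 5.98 and the ratios were 0.35 and 0.37. Bid was lower in lung than in LN cells in both assays, but in single cells Lung CD44low exceeded Lung CD44high 1.47-fold (1.11 to 1.95) where the bulk ratio was 0.53. That ratio was 0.96 with cells weighted equally and 1.12 with all barcodes. The same comparison gave 0.74 (0.59 to 0.91) for Bax, against 1.36 in bulk, and 1.20 with cells weighted equally. The ratio of Bcl2l1 to Bax counts was 1.94 in Lung CD44high, 2.48 in Lung CD44low and 1.60 in LN CD44high. With cells weighted equally it was 2.84, 2.50 and 2.74, so the order of the libraries depends on the weighting. Of the members whose counting interval left out a ratio of 1, 7 of 8 lay on the bulk side for Lung CD44high against LN, 5 of 7 for Lung CD44low against LN and 3 of 5 within lung. Mcl1 was at 1.98 per 10000 in Lung CD44high, 1.69 in Lung CD44low and 1.71 in LN CD44high, with Lung CD44high above LN (1.16, 1.03 to 1.30) and Lung CD44low below Lung CD44high (0.85, 0.74 to 0.98), both on the bulk side. Birc2 was at 0.18, 0.11 and 0.12 per 10000, and the interval of each of its ratios included 1. With cells weighted equally its Lung CD44low to CD44high ratio turned from 0.60 to 1.33 and its Lung CD44high to LN ratio from 1.49 to 0.52, the latter being 2.25 with cells of over 500 genes. Bak1 was at 0.24 to 0.26 per 10000. Of the 20 pathway genes called in bulk between lung lines and LN and BM lines, the lung to LN ratio of single-cell counts had an interval that left out 1 for 12 in Lung CD44high and for 11 in Lung CD44low, and 10 and 9 of these lay on the bulk side. Fas was at 0.53 per 10000 in Lung CD44high and 0.34 in Lung CD44low against 0.049 in LN CD44high, and Birc5 at 1.68 and 0.63 against 8.78. On the other side from bulk, Tradd in Lung CD44high was 1.79 times (1.23 to 2.58) the LN level, and in Lung CD44low Bok was 3.66 times (3.04 to 4.40) and Diablo 0.74 times (0.59 to 0.93) that level. The bulk libraries covered whole transcripts and the single-cell kit read 3′ ends, and the part of this difference was not tested.

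**Figure D5:**
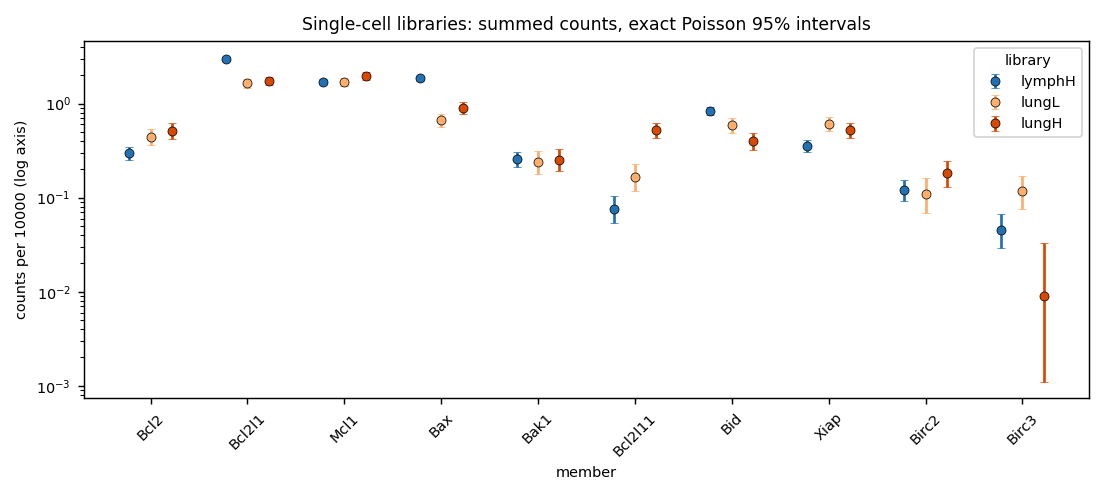
Summed single-cell counts per 10000 (log axis) of the 10 genes in the Lung CD44high (lungH), Lung CD44low (lungL) and LN CD44high (lymphH) libraries, with exact Poisson 95% intervals. Bcl2l1 and Bax were highest in the LN cells, Bcl2l11 in Lung CD44high cells and Birc3 in Lung CD44low cells.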

How the data were processed

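RNA of sorted MMTV-PyMT cell lines was measured in 14 bulk libraries (7 groups of 2) and 3 single-cell libraries. The authors aligned the bulk reads to mm10 with STAR, quantified GENCODE genes with RSEM and deposited TPM values, which are relative to each library's total and keep no depth, so the depth behind each bulk value is unknown. The deposited single-cell counts were made by the authors with kallisto and are not normalized. The single-cell libraries held 2210623, 2220759 and 5287425 counts in the cells kept (Lung CD44high, Lung CD44low, LN CD44high). Doublets were not removed, and 0 identical profiles were shared between libraries. The replicate numbers were not used as pairs.

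The 15348 of 55450 genes that reached 1 TPM in 2 or more libraries were fitted with limma 3.58.1 in R 4.3.3 (lmFit, eBayes with trend) on log2(TPM + 1), with 7 group means, 7 residual degrees of freedom and Benjamini-Hochberg adjustment over all genes. Calls used an adjusted p under 0.05. Fold changes on this scale understate the change of genes at low TPM. The study's own test was an exact test on counts, which TPM values do not allow. The fitting script was tested on simulated data. Single-cell counts were summed over cells with more than 250 genes and under 10% mitochondrial counts. Positions came from GENCODE vM21 and promoter windows from RefSeq on GRCm38.p6, where all 10 members matched by symbol.

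The members, the pathway and marker lists and the tests were chosen with earlier results of these data known. Named genes were the 10 members, up to 4 genes per pathway list with the smallest F test p, the 3 genes with the highest r to each member called, and Epcam and Cd44. Genes named outside this rule (Bcl2l13, Ggnbp1, other markers) bear on a member's value. Alternatives covered the pseudocount, the filter, the scaling, a replicate block, the libraries fitted, a fold threshold and each library left out. Leaving out the lung lines, testing each lung group alone and the ratio of Bcl2l1 to Bax were added after seeing the data. Some genes that this rule picks are not reported here.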

Additional observations from a re-analysis of the deposited data

Results flagged for a closer look

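The effect of CD44 class within lung differed from that within another organ for 3 of 10 members against LN, beside 19.5% of all genes, and for 1 of 10 against BM, beside 15.3%, by a limma test of the difference itself. Birc3 had the largest difference: its CD44high minus CD44low value in lung was lower than that in LN by a log2 difference of -2.58 ± 0.43 (SE, adjusted p = 0.0022) and than that in BM by -2.67 ± 0.43 (adjusted p = 0.0019). The CD44high minus CD44low values of Birc3 were -1.79 in lung, 0.79 in LN and 0.88 in BM, of which only the first passed on its own, and both differences were kept in all 14 fits that each left out 1 library (-2.88 to -2.28 and -2.96 to -2.37). For Bcl2l11 the difference between lung and LN was 2.53 ± 0.76 (adjusted p = 0.044), a call kept in 5 of the 14 fits (1.81 to 3.25). For Birc2 it was 1.18 ± 0.34 (adjusted p = 0.039), kept in 7 of 14 (0.97 to 1.39). Groups of 2 isolates are too small for a test of single outlying libraries. The 2 lung groups also differed in fibroblast markers, and the part of this in the 4 values was not tested.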

How the results depend on the processing

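Of 26 called differences of single members, none changed direction under any alternative run. With a pseudocount of 0.1 all 26 stayed past the threshold. With no filter on low TPM 3 fell short of it, with median-ratio scaling 5, with the compared groups fitted alone 7 and with a required absolute log2 fold change over 2 17. With the replicate number as a block 4 fell short: Bcl2l1 in BM CD44high and Xiap in Lung CD44high against MFP, and the lung minus LN difference of Bcl2l11 and Birc2. Within a group the numbers mark different mice, and whether a number means the same mouse in other groups is not stated. Libraries of the same number did not deviate together (r from -0.19 to 0.17 over 21 pairs of groups, 3 over 0.1). The block was therefore no main design, and it left 0 member calls for BM CD44high against MFP in place of 1 (24.6% of all genes).

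Member counts moved as follows, each with the share of all genes called in the same fits. Against MFP, LN CD44low had 1 call, with 0 under median-ratio scaling (11.4%), 0 in the fit of its own groups (3.38%), 0 over the fold threshold (4.79%) and 0 to 2 when 1 library was left out (8.06 to 17.8%). LN CD44high had 0 calls, with 2 under median-ratio scaling (16.9%) and 3 in the fit of its own groups (28.8%). BM CD44low had 2, with 1 at a filter of 5 TPM (24.0%), 1 under median-ratio scaling (19.9%), 0 in the fit of its own groups (7.78%), 0 over the fold threshold (7.16%) and 0 to 2 with 1 library left out (13.2 to 31.9%). BM CD44high had 1, with 0 under no filter (12.9%), 0 over the fold threshold (7.67%) and 0 to 1 with 1 library left out (14.8 to 33.5%). Lung CD44low had 5, with 2 over the fold threshold (18.8%) and 1 to 6 with 1 library left out (32.4 to 50.9%). Lung CD44high had 4, with 2 over the fold threshold (13.5%). Between CD44 classes, BM had 0 to 4 with 1 library left out (0.117 to 15.7%), with 4 without BM CD44low replicate 1. Lung had 1 to 5 in place of 4 (18.6 to 37.1%), 2 in the fit of its own groups (28.0%) and 1 over the fold threshold (11.3%). Lung lines against LN and BM lines had 5, with 1 over the fold threshold (12.7%). The F test called 6 members over 7 groups (65.2%) and 0 over the 5 groups without the lung lines (14.8%). The cause of these changes was not tested. Bulk depth is unknown. With 2 isolates per group, leaving 1 out makes the other assumed to vary like the remaining groups. Of 30 single-cell values, 14 left their counting interval when cells were weighted equally, 4 with all barcodes and 2 at over 500 genes.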
